A study of Rattus norvegicus with 12 samples.

Results

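The response of the fetal rat pituitary to maternal TCDD (2,3,7,8-tetrachlorodibenzo-p-dioxin, the prototype dioxin) was described from 6 pituitary arrays of a study of 12 arrays, over the 12023 of 22523 array probes that were detected (detection p below 0.05) on at least 3 of these 6. The TCDD group held the pituitaries labelled replicates 1, 2 and 5, from male Wistar fetuses whose dams had been given TCDD in corn oil by mouth on gestational day 15. The control group held replicates 1, 2 and 3, from male Wistar fetuses labelled only as control. All tissue was taken on day 20 of gestation, and the labels name no genetic change in either group. The other 6 arrays held hypothalamus of the same design, 3 TCDD and 3 control, and served here for the shared estimate of spread and for 1 tissue comparison. The dose figure has different mass units in the series text and in the sample labels, and no value below depends on it. Whether each sample had its own dam or litter is not in the labels, and p-values therefore cover just the spread between the samples at hand, some of which may be technical.

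TCDD binds the aryl hydrocarbon receptor (AhR). The receptor then enters the nucleus, pairs with ARNT and binds a short DNA element near genes of foreign-compound metabolism such as Cyp1a1. The fetal anterior pituitary arises from oral ectoderm and matures late in gestation into cells that make gonadotropins, growth hormone, prolactin, thyrotropin and corticotropin. It lies in a hollow of the skull base, covered by meninges and flanked by the trigeminal ganglia. In bulk tissue, fewer cells of a type and less RNA per cell cannot be told apart.

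Levels are given as normalized log2 intensities, on each array in the order of the replicate numbers above. The array labels were first checked on Cyp1a1, whose level was 11.47, 11.49 and 11.07 in TCDD pituitaries, against 4.98, 4.99 and 4.84 in control pituitaries. It was not detected on any control array, and the TCDD level was at least 57.4-fold higher than the lowest signal that counts as detected there. Pituitary identity was plain on all 6 arrays, with Tshb (thyrotropin beta) between 14.65 and 15.13 and Pomc (the corticotropin precursor) between 14.68 and 14.87. Of the other lineage markers, Hesx1 and Rbp4 were detected on none of the 6 arrays, and Cga stayed near background and was not tested. Raw median intensities ran from 105.3 to 119.5 while 51.6% to 54.5% of probes were detected on each array, and the number of arrays limits the precision.

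A single TCDD array, replicate 5, was unlike the rest. On it 271 probes exceeded the mean of the other pituitary arrays by over 1 log2 unit, against 19 to 39 on any other array, and its correlation with the hypothalamus arrays over all probes was 0.864 to 0.885, against 0.833 to 0.863 for the other pituitary arrays. Control replicate 1 differed in another way: Ttr (transthyretin, abundant in choroid plexus) was 12.51 there and between 5.05 and 5.81 on the other 5, a gene singled out after its values were seen. Control replicate 3 was low for a few bone genes, as given below. Each result was therefore fitted with all arrays and again without TCDD replicate 5, and was also refitted without each other pituitary array.

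With all arrays, 92 probes passed an adjusted p of 0.05 (0.765% of those tested), 50 of them higher in TCDD pituitaries (0.416%) and 42 lower (0.349%). These carried symbols for 47 genes that rose and 36 that fell. Without TCDD replicate 5, 97 probes passed (0.807%), 51 higher (0.424%) and 46 lower (0.383%), and 67 of them were shared with the fit of all arrays, 43 higher and 24 lower. A further 25 passed only with replicate 5 in the fit, 18 of them lower, and 30 passed only without it, 22 of them lower. No probe that passed in either fit changed sign between them. The median log2 fold over all tested probes was -0.01, and 0.00 without replicate 5. With the authors' processed values in place of this normalization, 213 probes passed, 93 higher and 120 lower. Fewer passed without TCDD replicate 1 (46), control replicate 1 (52) or control replicate 2 (50), and 26 passed with the pituitary arrays fitted alone. The groups did not overlap on any of the 92 probes, as on 20.6% of all tested probes (33.8% without replicate 5). For 36 of the 92 the call was kept whichever 1 of the 6 arrays was left out, 23 higher and 13 lower, and the other 56 lost it in at least 1 such fit (adjusted p 0.0501 to 0.205 where lost). Of the 36, 23 also passed with the pituitary arrays fitted alone. On 7 of the 92 probes no control array was above background and on 4 no TCDD array was, so these entered the test only through the group where they are high and had to differ, and 8 of them are among the 36. Their folds are bounds and their p-values lend no support.

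**Figure D1:**
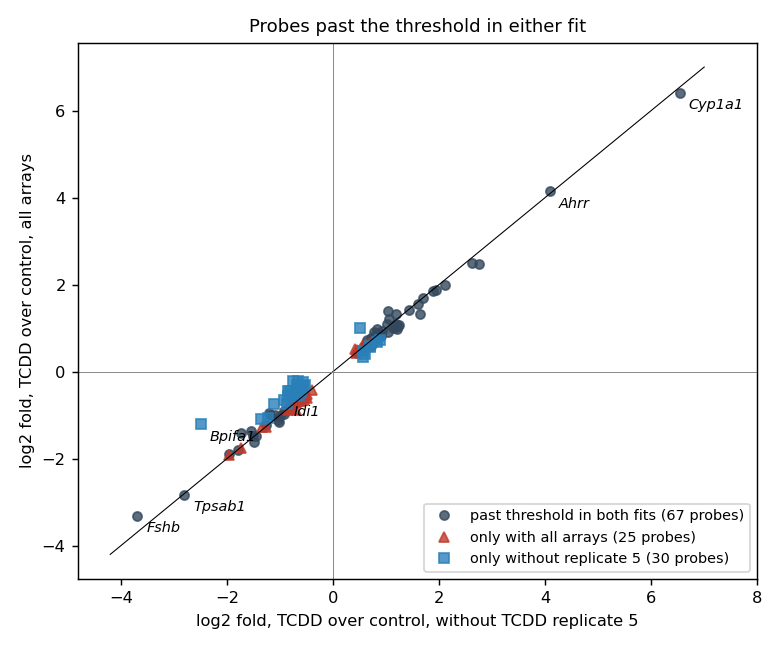
Log2 fold of TCDD over control with all arrays (vertical axis) against that without TCDD replicate 5 (horizontal axis), for the 122 probes past an adjusted p of 0.05 in either fit; the line marks equal folds. The 67 shared probes lie near the line, and most of the 30 that passed only without replicate 5 are falls that were smaller with it.

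The AhR targets and the gonadotropin genes serve here only as a check. Of 8 tested AhR targets 6 rose (Cyp1a1, Ahrr, Cyp1b1, Nqo1, Ugt1a6 and Cyp1a2), and of 10 tested gonadotroph genes 3 fell (Fshb, Lhb and Gnrhr), in both fits. With all arrays, 0.416% of all probes passed as higher and 0.349% as lower. For Cyp1a1, Ahrr, Ugt1a6 and Cyp1a2 no control array was above background. These were tested only through the TCDD arrays and had to differ, so their calls lend no support. All other genes below lie outside these 2 lists.

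2 genes of retinoid metabolism and signalling rose. Aldh1a1, an aldehyde dehydrogenase that makes retinoic acid from retinaldehyde, stood at 10.61, 11.11 and 10.49 in TCDD pituitaries, against 8.79, 8.84 and 8.64 in control pituitaries, and every TCDD array lay above every control array. Its log2 fold was 1.98 ± 0.26 (SE; adjusted p = 0.00279), and 2.11 (adjusted p = 0.00405) without TCDD replicate 5. Rxrg, the gamma form of the retinoid X receptor that partners thyroid hormone and retinoic acid receptors, was measured at 11.95, 12.07 and 11.86 in TCDD samples, against 11.23, 11.25 and 11.08 in controls. It rose by a log2 fold of 0.77 ± 0.11 (SE; adjusted p = 0.00561), with groups separated by more than their own ranges, and by 0.83 (adjusted p = 0.00836) without replicate 5. Rbp7, a cellular retinol-binding protein, was lower: it was detected on no TCDD array and on all 3 control arrays, at 4.94, 4.95 and 4.84 in TCDD pituitaries, against 6.04, 5.65 and 5.99 in control pituitaries. The TCDD level was at least 1.35-fold lower (adjusted p = 0.000752), and the probe was tested only because the controls detected it. The calls of Aldh1a1 and Rxrg were kept without any 1 array. Of the 15 tested genes of the retinoid list, which does not hold Rbp7, Aldh1a1 and Rxrg passed, in both fits, against 0.765% of all probes. The list's other enzymes and receptors did not pass, among them Aldh1a2 (log2 fold -0.82, adjusted p = 0.559), Cyp26b1 (-0.67, adjusted p = 0.539), Crabp1 (0.31, adjusted p = 0.491) and Rara (-0.04, adjusted p = 0.909). The list had 7 positive and 8 negative folds, with a median of -0.04 (0.07 without replicate 5).

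Alox15, a lipoxygenase that oxidises arachidonic and linoleic acid, showed one of the largest rises. Its levels were 10.01, 9.48 and 8.90 in TCDD pituitaries, against 6.86, 6.78 and 7.36 in control pituitaries, with replicate 5 the lowest of the TCDD arrays and still above all controls. The log2 fold was 2.47 ± 0.26 (SE; adjusted p = 0.000429), and 2.76 (adjusted p = 8.45e-05) without replicate 5. None of the other 14 tested genes of the lipoxygenase, cyclooxygenase and prostaglandin list passed. The smallest p among them belonged to Alox5ap, the partner protein of 5-lipoxygenase, with a log2 fold of -0.40 (adjusted p = 0.202).

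2 proteases of mast cells fell. Tpsab1, a tryptase stored in mast cell granules, was at 5.93, 5.33 and 5.60 in TCDD pituitaries, against 8.06, 8.29 and 8.99 in control pituitaries, the largest fall outside the gonadotropins. TCDD levels were close to background, with detection on 2 of the 3 arrays, and the log2 fold was -2.82 ± 0.35 (SE; adjusted p = 0.00233). Mcpt10, a mast cell protease of the chymase family, was detected on no TCDD array and on all 3 control arrays, at 5.05, 4.90 and 4.98 in TCDD pituitaries, against 6.21, 6.40 and 6.72 in control pituitaries. It was at least 1.97-fold lower in TCDD pituitaries (adjusted p = 6.86e-05), and was tested only because the controls detected it. The Tpsab1 call held without any 1 array. They were 2 of 11 tested mast cell markers, beside 0.349% of all probes that passed as lower. Of the 2, Mcpt10 had to differ once tested, so only the Tpsab1 call can be set beside that share. Of the 11, 9 had a negative fold, and the median was -0.21, against -0.22 without TCDD replicate 5 and -0.47 without TCDD replicate 2. Tpsb2, a second tryptase with a similar sequence, stood at 5.31, 5.69 and 5.32 on TCDD arrays, against 5.85, 6.29 and 7.43 on control arrays, and did not pass (adjusted p = 0.143). Cma1, Cpa3 and Kit, which define the type as well, did not pass either, with log2 folds of -0.73, -0.61 and 0.13 (adjusted p 0.627, 0.544 and 0.788). The summed level of the 11 markers, on the linear scale, was 3491 to 4347 on TCDD arrays and 4522 to 6001 on control arrays. Ms4a2 and Fcer1a, chains of the IgE receptor, were detected on none of the 6 arrays.

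Other genes of immune cells moved in both directions. Ccl2, a chemokine that draws monocytes, rose (log2 fold 0.72, adjusted p = 0.017), and RT1-Da, an MHC class II chain, rose as well (0.90, adjusted p = 0.0285). The scavenger receptor Cd163 of resident macrophages fell (-0.64, adjusted p = 0.0201), as did the chemokine Ccl5 (-0.64, adjusted p = 0.0201) and Lst1, a gene of myeloid cells (-0.57, adjusted p = 0.0186). Each of these 5 calls was lost in some fits with 1 array left out. Ccl2 lost it without TCDD replicate 1 or control replicate 1 or 2 (adjusted p 0.0517 to 0.0859). RT1-Da lost it without TCDD replicate 1 or 2 or control replicate 1 or 3 (adjusted p 0.0857 to 0.129). For Cd163 the call went without TCDD replicate 2 or 5 or control replicate 2 or 3 (adjusted p 0.0555 to 0.0859), and for Ccl5 without TCDD replicate 2 or 5 or control replicate 1, 2 or 3 (adjusted p 0.0559 to 0.0906). For Lst1 it went without TCDD replicate 1 or 2 or control replicate 1 or 2 (adjusted p 0.0531 to 0.102). On the list of 17 tested macrophage and microglia markers, 1 rose and 1 fell, beside 0.416% and 0.349% of all probes. The abundant markers Aif1, C1qa and C1qb did not pass (log2 folds -0.19, -0.11 and 0.11, adjusted p 0.491, 0.837 and 0.787).

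**Figure D2:**
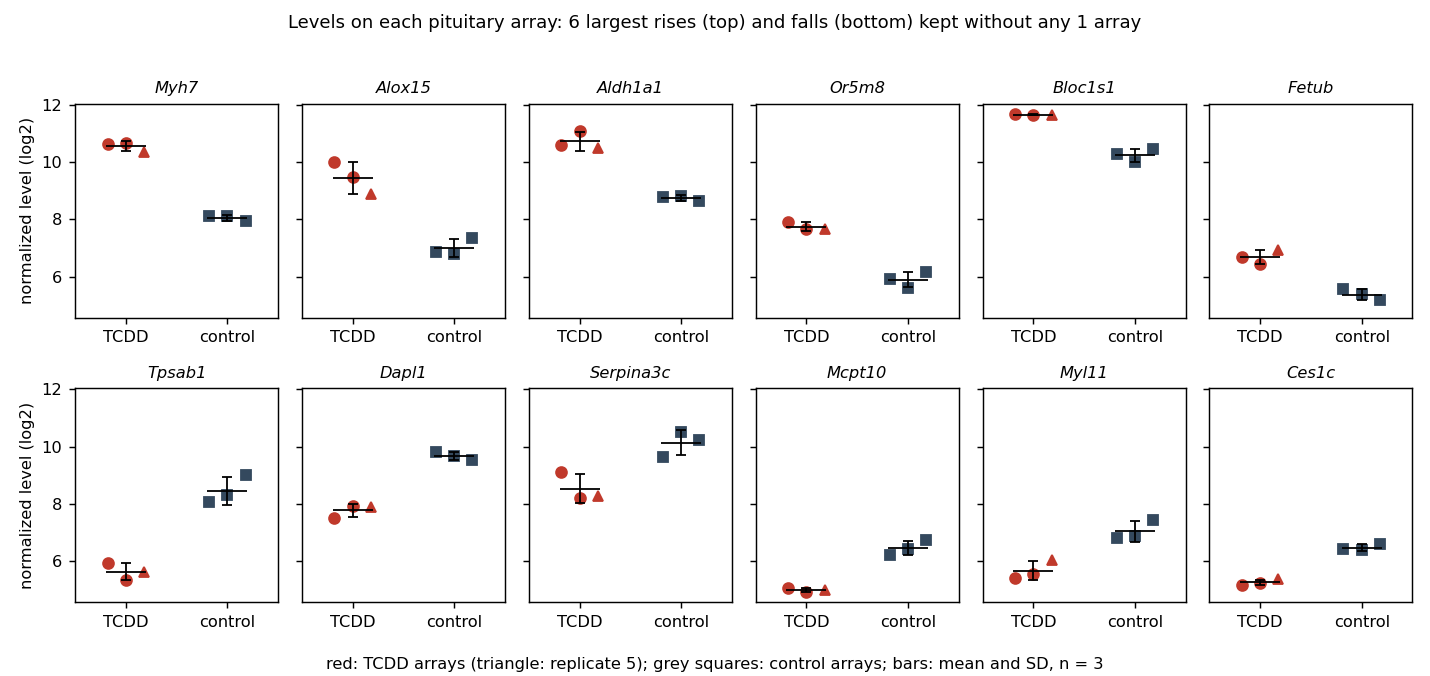
Normalized log2 level (vertical axis) on each pituitary array for the 6 genes with the largest rises (top) and the 6 with the largest falls (bottom) that kept their call without any 1 array, AhR targets and gonadotroph genes left out; horizontal marks are means with SD over 3 arrays. In each panel all TCDD points (red, replicate 5 as a triangle) lie on one side of all control points (grey), and Mcpt10 and Ces1c were above background on no TCDD array.

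2 genes of cardiac myosin rose. Myh7, the slow and beta-cardiac myosin heavy chain, stood at 10.62, 10.69 and 10.37 in TCDD pituitaries, against 8.13, 8.10 and 7.93 in control pituitaries, with no overlap and spreads of 0.17 and 0.11 (SD, n = 3 each). Its log2 fold of 2.51 ± 0.12 (SE; adjusted p = 2.43e-07) was the largest among passing probes outside the AhR targets with all arrays. Without replicate 5 it was 2.61 (adjusted p = 3.35e-07), where that of Alox15 was larger. Myh6, the alpha-cardiac heavy chain encoded beside it and nearly identical in sequence, was at 9.96, 9.81 and 8.91 in TCDD pituitaries, against 8.11, 8.55 and 8.08 in control pituitaries and rose by 1.31 ± 0.23 (SE; adjusted p = 0.0185). In hypothalamus the mean level of Myh7 was 9.996 with TCDD and 9.87 in controls, above its 8.05 in control pituitaries. Myh6 stood at 5.02 in hypothalamus with TCDD and no higher in controls. Binding of the probe of one to the RNA of the other was not tested. The Myh7 call held without any 1 array, while that of Myh6 was lost without TCDD replicate 1 or 2 or control replicate 1 or 3 (adjusted p 0.0693 to 0.0883).

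4 genes of fast skeletal fibres fell. Myl11, the fast regulatory light chain, was at 5.39, 5.55 and 6.04 in TCDD pituitaries, against 6.80, 6.85 and 7.44 in control pituitaries (log2 fold -1.37 ± 0.19 SE, adjusted p = 0.00416). Ckm, muscle creatine kinase, was measured at 5.50, 5.02 and 6.34 on TCDD arrays, against 6.71, 6.98 and 7.38 on control arrays, and fell by 1.40 on the log2 scale (adjusted p = 0.0283). Myl11 and Ckm were each detected on 2 of the 3 TCDD arrays, with levels close to background. Tnnc2 (-1.0, adjusted p = 0.0266) and Tnnt3 (-0.52, adjusted p = 0.0422), fast troponin subunits, fell too. On all 4 genes replicate 5 lay at or above the middle of the TCDD arrays, and the falls of Myl11, Ckm and Tnnc2 were larger without it, at -1.55, -1.74 and -1.18 (adjusted p 0.00101, 0.000612 and 0.00733), where Acta1, skeletal actin, also passed at -1.12 (adjusted p = 0.0153). The Myl11 call held without any 1 array, and missed the threshold with the pituitary arrays fitted alone (adjusted p = 0.107). Ckm lost its call without TCDD replicate 1 or 2 or control replicate 2 or 3 (adjusted p 0.0676 to 0.118), Tnnc2 without TCDD replicate 1 or 2 or control replicate 2 or 3 (adjusted p 0.075 to 0.121), and Tnnt3 without TCDD replicate 2 or 5 or control replicate 1, 2 or 3 (adjusted p 0.0926 to 0.193). On the list of 18 tested muscle markers 2 rose and 4 fell, beside 0.416% and 0.349% of all probes, 13 had a negative fold, and the median was -0.42. Cardiac Tnnt2 did not pass (log2 fold -0.41, adjusted p = 0.882). The myogenic factor Myod1 and the heavy chains Myh2 and Myh4 were detected on none of the 6 arrays. Summed over the list, the linear level was 3732 to 5777 on TCDD arrays and 2993 to 4967 on control arrays. Bright members, such as Tnnt2 and, on TCDD arrays, Myh7 and Myh6, weigh more in that sum than dim ones. The part of muscle tissue in these results was not tested.

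2 bone genes fell, and both calls depended on single arrays. Ibsp, bone sialoprotein, was at 7.22, 7.05 and 7.06 in TCDD pituitaries, against 9.01, 9.81 and 7.77 in control pituitaries, and Panx3, a channel of bone and cartilage cells, at 6.89, 6.77 and 6.96 in TCDD pituitaries, against 9.32, 9.46 and 7.56 in control pituitaries. Both fell, with log2 folds of -1.75 ± 0.36 (SE; adjusted p = 0.0479) and -1.91 ± 0.37 (SE; adjusted p = 0.0368), and control replicate 3 lay near the TCDD arrays for each. The call of Ibsp was lost without TCDD replicate 1, 2 or 5 or control replicate 1 or 2 (adjusted p 0.0872 to 0.158), and that of Panx3 without TCDD replicate 1, 2 or 5 or control replicate 1 or 2 (adjusted p 0.0587 to 0.151). Dmp1, a matrix protein of osteocytes, showed the same array pattern, at 6.15, 6.45 and 5.96 on TCDD arrays, against 9.26, 9.29 and 6.66 on control arrays, and did not pass (adjusted p = 0.0802). Without control replicate 3 its adjusted p was 2.22e-06. Of 16 tested bone and cartilage markers 2 fell, beside 0.349% of all probes, 15 had a negative fold, and the median was -0.23 (-0.23 without TCDD replicate 5, where none passed). Abundant members did not pass: Spp1 had a log2 fold of -0.14 (adjusted p = 0.898) and Alpl one of -0.02 (adjusted p = 0.982). The summed level of the list was 14900 to 20174 on TCDD arrays and 17047 to 19744 on control arrays, and the part of bone in the result was not tested.

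Among endocrine genes other than the gonadotropins, few changed. Ghrhr, the receptor through which hypothalamic GHRH drives growth hormone cells, was at 8.99, 9.31 and 9.44 in TCDD pituitaries, against 10.30, 10.48 and 9.95 in control pituitaries, and no TCDD array reached the control range. It fell with a log2 fold of -0.99 ± 0.16 (SE; adjusted p = 0.0143), and of -1.10 (adjusted p = 0.0131) without replicate 5. The call was lost without TCDD replicate 1 or control replicate 1 or 2 (adjusted p 0.0645 to 0.0691). Tshb (-0.26, adjusted p = 0.834), Prl, prolactin (-0.19, adjusted p = 0.846), and Pou1f1, the transcription factor of these 3 lineages (-0.18, adjusted p = 0.598), did not pass. On the list of 10 tested genes of somatotrophs, lactotrophs and thyrotrophs, Rxrg rose and Ghrhr fell, beside 0.416% and 0.349% of all probes. Pcsk2, a convertase that cuts prohormones such as POMC, had levels of 7.60, 7.37 and 7.25 in TCDD pituitaries, against 6.40, 6.69 and 6.67 in controls, and rose by 0.82 ± 0.14 (SE; adjusted p = 0.0172). Its call was lost without TCDD replicate 1 or 2 or control replicate 1 (adjusted p 0.0531 to 0.088). It was the 1 gene of 22 tested prohormone processing and granule genes to pass, beside 0.416% of all probes that passed as higher. Of the 22, 16 had a positive fold, with a median of 0.18, against 0.08 without control replicate 3. Pomc itself was at 14.84, 14.87 and 14.76 in TCDD pituitaries, against 14.80, 14.83 and 14.68 in controls, and did not pass (adjusted p = 0.901).

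Receptors for other circulating signals also moved. Mtnr1a, a melatonin receptor of the pars tuberalis and the fetal pituitary, fell with a log2 fold of -0.87 (adjusted p = 0.0256). It was detected on 1 of the 3 TCDD arrays and on all 3 control arrays, so TCDD levels were close to background. The call was lost without TCDD replicate 1 or 5 or control replicate 1, 2 or 3 (adjusted p 0.0502 to 0.116). Gipr, the receptor of the gut hormone GIP, rose (1.04, adjusted p = 0.0201), a call lost without TCDD replicate 1 or 2 or control replicate 2 or 3 (adjusted p 0.068 to 0.0927). None of the 12 tested genes of pituitary stem cells and patterning passed in either fit, where Six3 had the smallest p (log2 fold 0.31, adjusted p = 0.591).

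Proliferation genes lay lower as a group, with few single calls. All 32 tested DNA replication genes had a negative fold, with a median of -0.34 against -0.01 over all probes, and so did 32 of 33 mitosis genes, with a median of -0.31. 1 gene of each list passed, against 0.349% of all probes that passed as lower. Cdt1, which licenses replication origins, was at 6.75, 7.21 and 6.78 in TCDD pituitaries, against 7.53, 7.67 and 7.59 in control pituitaries (log2 fold -0.68 ± 0.13 SE, adjusted p = 0.0311). Ube2c, the ubiquitin-conjugating enzyme that drives exit from mitosis, was at 10.24, 10.51 and 10.40 in TCDD pituitaries, against 11.03, 11.02 and 10.89 in control pituitaries (log2 fold -0.60 ± 0.10 SE, adjusted p = 0.0186). TCDD replicates lay below all controls for both. The next smallest p belonged to Gins1, a replication helicase subunit (-0.62, adjusted p = 0.0572), and Cenpf, a centromere protein (-0.58, adjusted p = 0.103). Without replicate 5 the medians were -0.29 and -0.30, and Ube2c was the 1 gene that passed. Cdt1 was lost without TCDD replicate 1 or 5 or control replicate 1, 2 or 3 (adjusted p 0.0767 to 0.142), and Ube2c without TCDD replicate 1 or control replicate 1 or 2 (adjusted p 0.0859 to 0.0977). Cell-cycle inhibitors and p53 targets did not follow: none of 17 tested passed, with a median of 0.01.

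Genes of the endoplasmic reticulum, where secreted hormones fold, leaned the same way by small amounts. Sdf2l1, a chaperone partner of BiP, fell (-0.67, adjusted p = 0.0102), with levels of 7.03, 7.27 and 6.94 in TCDD pituitaries, against 7.80, 7.73 and 7.73 in controls. Manf, a secreted factor induced by unfolded protein, fell as well (-0.53, adjusted p = 0.0201), with levels of 10.93, 11.14 and 10.94 in TCDD pituitaries, against 11.57, 11.52 and 11.50 in controls. They were 2 of 25 tested ER chaperone and unfolded protein response genes, beside 0.349% of all probes that passed as lower. Of the 25, 22 had a negative fold, and the median was -0.11. Sdf2l1 was lost without TCDD replicate 1 or control replicate 1 (adjusted p 0.0522 to 0.0566), and Manf without TCDD replicate 1 or 5 or control replicate 1, 2 or 3 (adjusted p 0.0559 to 0.109). The genes that carry proteins into and out of the reticulum gave 30 negative folds of 33 and a median of -0.12, and none passed. Their smallest p belonged to Sec61b, a subunit of the translocation channel (-0.38, adjusted p = 0.0707), and Lman1, a cargo receptor (-0.44, adjusted p = 0.0956).

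**Figure D3:**
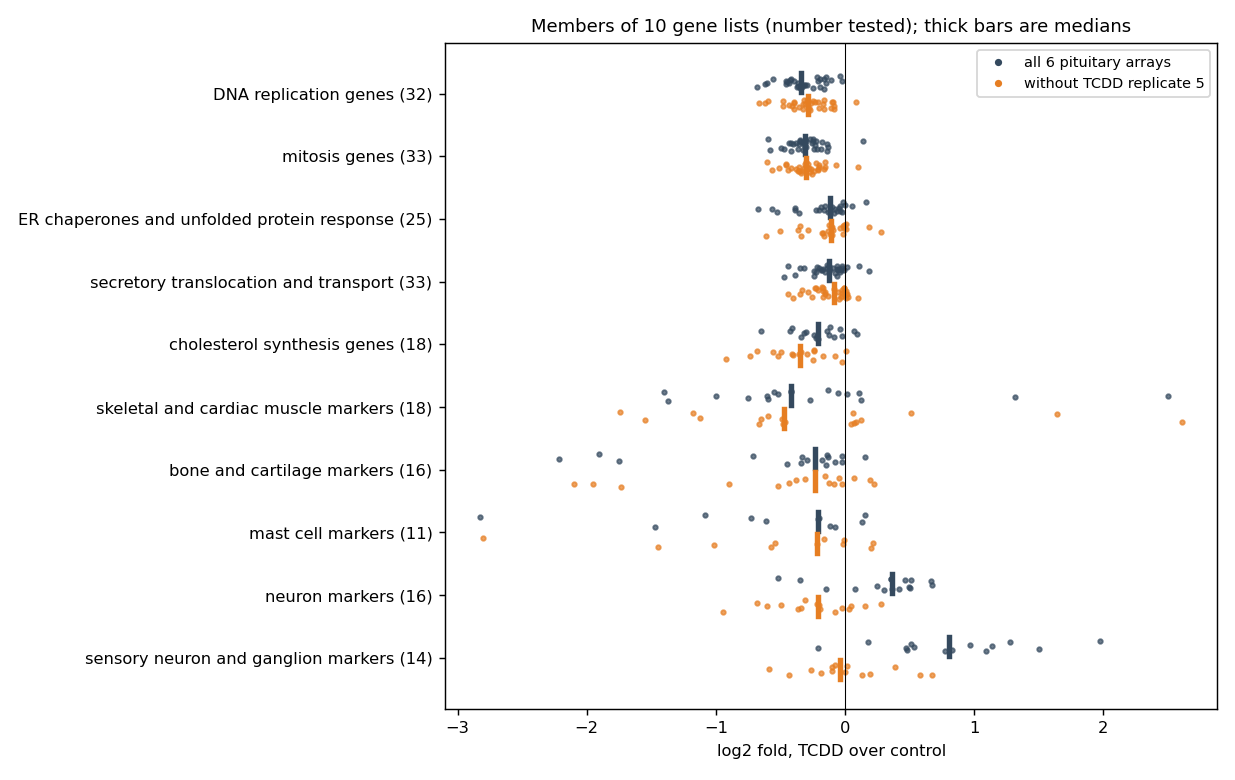
Log2 fold of TCDD over control (horizontal axis) of every tested member of 10 gene lists (rows, number tested in brackets), with all 6 pituitary arrays (dark, above) and without TCDD replicate 5 (orange, below); each point is a gene and thick bars are medians. Replication and mitosis genes lie left of 0 in both fits, cholesterol genes further left without replicate 5, and the neuron lists move from right of 0 to about 0 or below.

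Several of the firmest changes belonged to no such list. Or5m8, named for an olfactory receptor, was at 7.92, 7.65 and 7.67 in TCDD pituitaries, against 5.90, 5.61 and 6.15 in control pituitaries (log2 fold 1.86 ± 0.13 SE, adjusted p = 1.34e-05). Bloc1s1, a subunit of the complex that builds lysosome-related organelles, was at 11.69, 11.65 and 11.66 in TCDD pituitaries, against 10.29, 9.99 and 10.45 in control pituitaries (log2 fold 1.42 ± 0.12 SE, adjusted p = 7.33e-05), and its 3 TCDD values agreed within 0.02 (SD). Fetub, a protease inhibitor of the cystatin superfamily, was at 6.69, 6.44 and 6.95 in TCDD pituitaries, against 5.56, 5.37 and 5.16 in control pituitaries (log2 fold 1.33 ± 0.13 SE, adjusted p = 0.000338), with 1 of the 3 control arrays detected. These rises were about as large without replicate 5, at 1.89, 1.44 and 1.18.

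Smaller rises that held without any 1 array came from genes of varied function. Hrk, a BH3-only protein that promotes apoptosis, rose to 8.46, 8.53 and 8.54 in TCDD pituitaries, against 7.72, 7.44 and 7.72 in controls (0.89, adjusted p = 0.00158). Sox14, a transcription factor, was at 7.89, 8.02 and 7.56 on TCDD arrays, against 6.93, 6.64 and 6.76 on control arrays (1.04, adjusted p = 0.00281). Galnt18, of the family that starts O-linked glycans, had a log2 fold of 0.98 (adjusted p = 0.00241), and Gdap1l1, a relative of the mitochondrial protein GDAP1, one of 0.94 (adjusted p = 0.00233). Spock1, an extracellular proteoglycan (0.90, adjusted p = 0.0107), and Thbs4, a thrombospondin (0.63, adjusted p = 0.00485), rose too, as did Fxyd3, a regulator of the sodium pump (0.78, adjusted p = 0.00464). Kcnh6, a potassium channel of the ERG family, rose by 0.65 (adjusted p = 0.00755). Susd4, a complement regulator, was detected on the 3 TCDD arrays and on no control array, at least 1.34-fold higher (adjusted p = 0.00487), and was tested only because the TCDD arrays detected it. With the pituitary arrays fitted alone Hrk and Fxyd3 passed, and the other 7 did not (adjusted p 0.0505 to 0.136).

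Falls that held without any 1 array included Dapl1, death-associated protein-like 1, at 7.51, 7.91 and 7.89 in TCDD pituitaries, against 9.81, 9.66 and 9.52 in control pituitaries (log2 fold -1.89 ± 0.18 SE, adjusted p = 0.000239). Serpina3c, a secreted inhibitor of serine proteases, was at 9.10, 8.21 and 8.28 in TCDD pituitaries, against 9.65, 10.52 and 10.24 in control pituitaries (log2 fold -1.61 ± 0.24 SE, adjusted p = 0.00721). It was the 1 of 12 tested serpin genes to pass, beside 0.349% of all probes that passed as lower. The gene missed the threshold with the pituitary arrays fitted alone (adjusted p = 0.136). Oit3, a zona pellucida domain protein, fell with a log2 fold of -1.16 (adjusted p = 0.00241), and Eaf2, a partner of the elongation factor ELL, with one of -1.12 (adjusted p = 0.00485), and Eaf2 also missed it in that fit (adjusted p = 0.11). Ces1c, a carboxylesterase, was detected on no TCDD array and on all 3 control arrays, at 5.17, 5.21 and 5.36 in TCDD pituitaries, against 6.41, 6.37 and 6.60 in control pituitaries. It was at least 2.00-fold lower in TCDD pituitaries (adjusted p = 0.000429), and was tested only because the controls detected it. In each case all TCDD arrays lay below all control arrays.

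5 genes of vessels and matrix rose, each with a call that was lost without some arrays. Vwf, von Willebrand factor of endothelial cells, was at 11.15, 10.72 and 10.47 in TCDD pituitaries, against 9.71, 9.56 and 9.84 in control pituitaries (1.08, adjusted p = 0.0293), and was lost without TCDD replicate 1 or 2 or control replicate 1, 2 or 3 (adjusted p 0.0681 to 0.138). Acvrl1, the endothelial TGF-beta family receptor ALK1, rose by 0.98 (adjusted p = 0.0225), a call lost without TCDD replicate 1 or 2 or control replicate 1 or 2 (adjusted p 0.0768 to 0.111). Esm1, a proteoglycan secreted by endothelium, rose by 0.64 (adjusted p = 0.0156), a call lost without TCDD replicate 1 or 2 or control replicate 1, 2 or 3 (adjusted p 0.0565 to 0.0821). Of 17 tested endothelial markers, a list without Acvrl1 and Esm1, only Vwf passed, beside 0.416% of all probes that passed as higher. Their median was -0.11, against 0.02 without TCDD replicate 5, -0.03 without control replicate 1 and -0.06 without control replicate 3. The summed level of that list was 33304 to 42036 on TCDD arrays and 37683 to 41048 on control arrays. Col5a3, a fibrillar collagen chain, was at 6.62, 6.29 and 7.52 in TCDD pituitaries, against 5.18, 5.34 and 5.70 in control pituitaries (1.40, adjusted p = 0.0254), highest on replicate 5. Col5a3 was detected on 1 of the 3 control arrays. Its call was lost without TCDD replicate 1 or control replicate 1 or 2 (adjusted p 0.0626 to 0.119). P3h1, a prolyl hydroxylase that modifies collagen, rose by 1.05 (adjusted p = 0.0109), a call lost without TCDD replicate 1 or control replicate 1 or 2 (adjusted p 0.0501 to 0.0632). The part of vessel cells was not tested. None of the 33 tested genes of a fibroblast and matrix list, which holds neither collagen gene above, passed in either fit.

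Channel, junction and polarity genes moved singly. The acid-sensing channel subunit Asic4 rose (1.01, adjusted p = 0.0185), as did Dpp6, an accessory subunit of A-type potassium channels (at least 1.38-fold, since no control array detected it and it was tested only through the TCDD arrays; adjusted p = 0.0111). The potassium channel Kcnc2 rose on 1 of its 2 probes (0.52, adjusted p = 0.0285), and the other gave the same fold and missed the threshold (adjusted p = 0.0882). The tight junction gene Ocln rose (0.59, adjusted p = 0.0285), while Cldn1, another, fell (-1.02, adjusted p = 0.0169), and so did the polarity gene Pard6g (-1.26, adjusted p = 0.0473). All of these lost the call in some fits: Asic4 without TCDD replicate 1 or 2 or control replicate 1, 2 or 3 (adjusted p 0.0503 to 0.0765), Dpp6 without TCDD replicate 2 or control replicate 3 (adjusted p 0.0565 to 0.0594), Kcnc2 without TCDD replicate 1 or 2 or control replicate 1 or 2 (adjusted p 0.0879 to 0.143), Ocln without TCDD replicate 1 or 2 or control replicate 1, 2 or 3 (adjusted p 0.0899 to 0.128), Cldn1 without TCDD replicate 1 or 2 or control replicate 2 or 3 (adjusted p 0.0552 to 0.0697) and Pard6g without TCDD replicate 2 or 5 or control replicate 1, 2 or 3 (adjusted p 0.0577 to 0.156).

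The remaining genes past the threshold also lost the call in at least 1 fit with an array left out. Those that rose were Pdzk1ip1 (1.10), Sdsl (0.72), Atp2a3 (0.70), Hepacam2 (0.66), Pi16 (0.63), Klc3 (0.57), Adgrg1 (0.55), Carhsp1 (0.52), Nln (0.50), Exoc3 (0.44) and Ddx23 (0.43), as log2 folds. The genes that fell were C3h15orf48 (-0.96), Mlc1 (-0.91, at least 1.55-fold lower and detected on no TCDD array), Slc17a9 (-0.85, detected on 1 TCDD array), Paip1 (-0.79), Bambi (-0.71), Fam174c (-0.61), Dennd2d (-0.58) and Vkorc1l1 (-0.43). Adgrg1, Exoc3, Vkorc1l1 and Bambi lost it in all 6 such fits (adjusted p 0.0576 to 0.205). Hepacam2, Pi16, Adgrg1, Carhsp1, Nln, Exoc3, Slc17a9, Bambi, Fam174c and Vkorc1l1 were among those lost without TCDD replicate 5.

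AhR with ARNT binds the core letters TNGCGTG, so the promoters of the changed genes were searched for them on both strands, from 250 bases before to 50 after each start, in RefSeq sequence of build GRCr8. A match was held by 5 of the 35 promoters found for genes that rose (14.3%) and by 1 of the 25 for genes that fell (4%), beside 7.68% of the 7107 promoters of tested genes and 5.12% of all 27457. Ahrr and Cyp1b1 were 2 of the 5 that rose and belong to the AhR list kept as a check. The 14.3% is therefore not a share of genes outside that list. The other 4 genes with a match are printed because they joined the motif to a change outside the AhR list, with the match in capitals, 5′ to 3′ on the gene's strand. The match began at 19 bases relative to the start site in Hrk, and at -35, -145 and -21 in Ocln, Ddx23 and Ghrhr. Hrk lay at chr12:44070512-44070811 (minus strand), Ocln at chr2:33441149-33441448 (minus strand), Ddx23, an RNA helicase of the spliceosome, at chr7:131693828-131694127 (minus strand) and Ghrhr at chr4:85830236-85830535 (plus strand).
Hrk: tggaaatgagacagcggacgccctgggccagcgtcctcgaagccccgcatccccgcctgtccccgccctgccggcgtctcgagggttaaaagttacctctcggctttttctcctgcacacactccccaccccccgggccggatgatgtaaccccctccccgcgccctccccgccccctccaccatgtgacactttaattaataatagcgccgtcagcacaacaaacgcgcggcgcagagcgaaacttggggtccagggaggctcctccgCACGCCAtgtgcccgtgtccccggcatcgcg
Ocln: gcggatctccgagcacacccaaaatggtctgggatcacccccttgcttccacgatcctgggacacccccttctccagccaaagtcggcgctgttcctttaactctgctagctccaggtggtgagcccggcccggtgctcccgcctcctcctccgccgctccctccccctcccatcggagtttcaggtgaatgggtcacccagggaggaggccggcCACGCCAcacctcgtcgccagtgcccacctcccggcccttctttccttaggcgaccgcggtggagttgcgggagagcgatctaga
Ddx23: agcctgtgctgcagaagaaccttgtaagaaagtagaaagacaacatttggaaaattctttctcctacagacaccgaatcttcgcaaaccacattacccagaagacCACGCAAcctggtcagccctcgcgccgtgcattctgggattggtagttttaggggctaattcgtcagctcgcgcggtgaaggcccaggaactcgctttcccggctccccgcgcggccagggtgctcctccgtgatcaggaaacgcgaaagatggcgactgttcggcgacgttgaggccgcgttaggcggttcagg
Ghrhr: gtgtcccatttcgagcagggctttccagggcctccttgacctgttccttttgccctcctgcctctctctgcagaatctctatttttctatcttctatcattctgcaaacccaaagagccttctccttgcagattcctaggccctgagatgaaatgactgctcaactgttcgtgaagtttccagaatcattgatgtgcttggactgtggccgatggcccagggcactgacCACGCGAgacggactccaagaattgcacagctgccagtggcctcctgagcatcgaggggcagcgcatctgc
In all 4 the capitals read the motif on the opposite strand. Hrk, Ocln and Ddx23 rose and Ghrhr fell, and of these the Hrk call alone held without any 1 array. A match is a description of the letters and was not tested as a site.

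On TCDD replicate 5 the genes of sensory neurons stood out. Scn10a, a sodium channel of pain-sensing neurons, was at 8.35, 8.21 and 12.17 in TCDD pituitaries, against 5.99, 8.72 and 8.10 in control pituitaries, so replicate 5 lay far above the rest while control replicate 1 lay lowest. Prph, the peripheral neuron filament peripherin, was at 10.76, 10.69 and 14.24 in TCDD pituitaries, against 8.88, 12.01 and 11.51 in control pituitaries, and Sncg, gamma-synuclein, at 9.22, 8.97 and 13.28 in TCDD pituitaries, against 7.31, 10.81 and 9.94 in control pituitaries, both again highest on replicate 5 and lowest on control replicate 1. Tac1, the precursor of substance P, and Drgx, a transcription factor of sensory neurons, lay 3.10 and 3.01 log2 units above the mean of the other 5 arrays. The 15 largest differences held also Scn11a, Fxyd7, Synpr, Stmn2, Ppp1r1c, Fgf13, Slc17a6, Gabbr2 and Tubb3, at 3.36 down to 2.76, beside Cyp1a1 itself. None of these neuronal genes passed in either fit. The summed linear level of the 14 tested sensory neuron and ganglion markers was 40858 on replicate 5, and 3942 and 4255 on the other TCDD arrays, against 1878, 8156 and 5525 on the control arrays. Their median log2 fold was 0.80 with replicate 5 and -0.04 without it. Leaving out another array put it between 0.45 (control replicate 1) and 1.30 (TCDD replicate 2). For 16 neuron markers it was 0.36 with replicate 5, -0.21 without it and 0.59 without TCDD replicate 1. Of the 271 probes high on replicate 5, 70.8% were higher in control hypothalamus than in control pituitary, against 49.0% of all tested probes. Among the 92 that passed (0.765% of all tested) were 8 of the 271, Cyp1a1 included, which was high on every TCDD array.

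**Figure D4:**
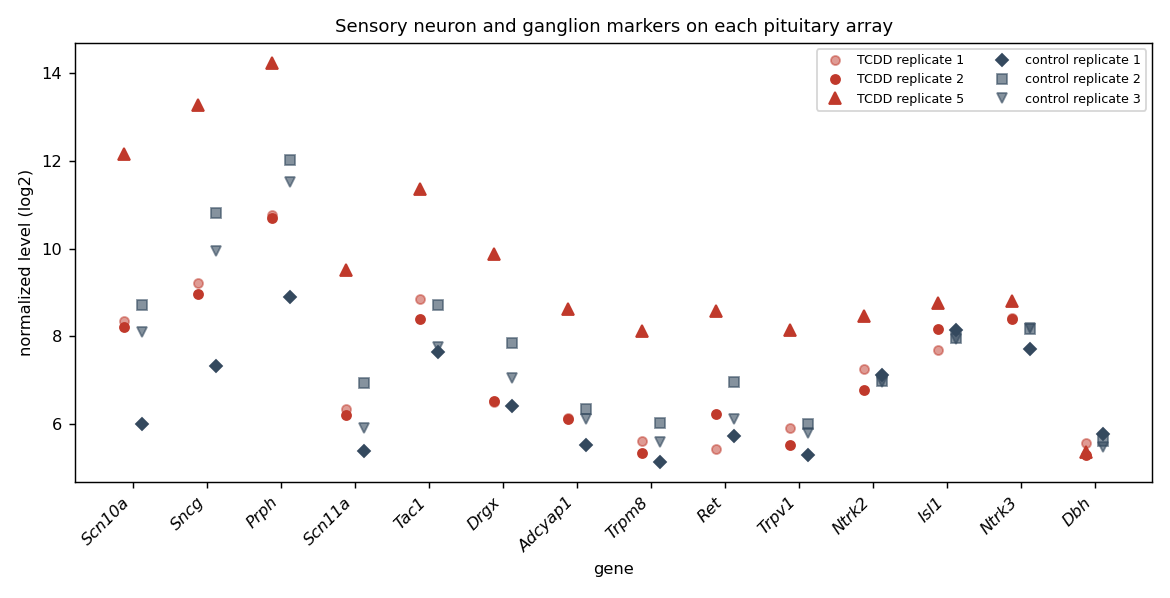
Normalized log2 level (vertical axis) of the 14 tested sensory neuron and ganglion markers (horizontal axis) on each pituitary array, TCDD arrays in red and control arrays in grey. TCDD replicate 5 (triangle) is the highest array for 13 of the 14 genes, and control replicate 1 (diamond) is the lowest for Scn10a, Sncg and Prph.

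The genes lowest on replicate 5 were of another kind. Ptgds, a prostaglandin D synthase abundant in meninges, was at 14.99, 14.98 and 11.86 in TCDD pituitaries, against 13.53, 15.22 and 14.83 in control pituitaries, low on replicate 5 and on control replicate 1. Slc22a6, Slc6a13 and Slc13a3, solute carriers, and Tnnt2, cardiac troponin T, showed that order too, from -2.47 to -2.27 log2 units below the mean of the other arrays for replicate 5. Slc6a20a and Nupr1 followed at -1.89 and -1.89. None of these genes passed in either fit.

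Calls in cholesterol synthesis depended on replicate 5. With all arrays none of its 18 tested genes passed, and without it 3 fell, beside 0.383% of all probes. Idi1, which isomerises isopentenyl diphosphate, was at 9.01, 9.36 and 9.98 in TCDD pituitaries, against 10.12, 10.07 and 10.11 in control pituitaries, lower on every TCDD array, with a log2 fold of -0.65 (adjusted p = 0.173) with all arrays and -0.92 (adjusted p = 0.00535) without replicate 5. Fdps, farnesyl diphosphate synthase, was at 9.16, 9.46 and 10.44 in TCDD pituitaries, against 10.01, 9.98 and 9.96 in control pituitaries, where replicate 5 lay above all controls and the other TCDD arrays below them. Its log2 fold was -0.30 (adjusted p = 0.677) with all arrays and -0.68 (adjusted p = 0.0327) without replicate 5. Sqle, squalene epoxidase, had the same pattern, at 9.78, 9.86 and 10.53 in TCDD pituitaries, against 10.40, 10.36 and 10.37 in control pituitaries, with -0.56 (adjusted p = 0.0153) without it. The list's median was -0.21 with all arrays and -0.35 without replicate 5, and 16 and 17 of 18 folds were negative. Leaving out TCDD replicate 1 or 2 moved it the other way, to -0.08 and -0.14. Msmo1, a sterol oxidase and the member of smallest p with all arrays, had a log2 fold of -0.41 (adjusted p = 0.159) then and of -0.52 (adjusted p = 0.0587) without replicate 5. On replicate 5, where Idi1, Fdps and Sqle were higher than on the other TCDD arrays, the neuronal genes were high as well, and their part in this difference was not tested.

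Further genes passed only without replicate 5. Artn (0.89, adjusted p = 0.0153), a ligand of the RET receptor system, Atp6v1c2 (0.83, adjusted p = 0.0242), a proton pump subunit, Prr15 (0.70, adjusted p = 0.025), Krt33b (0.69, adjusted p = 0.0494) and Bcas1 (0.51, adjusted p = 0.0327) rose in that fit, as log2 folds. Trh, the precursor of thyrotropin-releasing hormone, fell to 6.23, 5.78 and 6.50 in TCDD pituitaries, against 7.26, 7.62 and 6.81 in controls, with a log2 fold of -1.22 (adjusted p = 0.0428) without replicate 5 and an adjusted p of 0.067 with it. Ass1, argininosuccinate synthase, also fell (-0.88, adjusted p = 0.0412), as did Rbp3 (-0.65, adjusted p = 0.0138), Ppa1 (-0.59, adjusted p = 0.0183), Tuba4a (-0.80, adjusted p = 0.0296), Lin7b (-0.75, adjusted p = 0.0232), Brinp3 (-0.68, adjusted p = 0.021), Noct (-0.58, adjusted p = 0.0275), Pcdh17 (-0.53, adjusted p = 0.0494), Lypd2 (-0.85, adjusted p = 0.0277) and Cyp2a3 (-0.76, adjusted p = 0.00733). Bpifa1, a secreted protein of airway and oral epithelium, had the largest such fold (-2.49, adjusted p = 0.0388) and the widest scatter, at 5.05, 6.70 and 9.74 in TCDD pituitaries, against 9.41, 8.07 and 7.64 in control pituitaries.

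Many pathway lists gave no call. None of the 495 tested members of 21 pathway lists passed in either fit, each gene taken by its brightest probe (the passing probe of Kcnc2 is the dimmer one), and their medians lay between -0.12 and 0.15 with all arrays and between -0.09 and 0.23 without replicate 5. With all arrays, these lists held respiratory chain genes (38 tested, median -0.06), cytosolic ribosomal proteins (44, -0.04), glycolysis (23, 0.12), the circadian clock (11, 0.00), and the Wnt, Notch and TGF-beta families (25, 14 and 34, medians -0.11, 0.12 and 0.02). Acvrl1, the TGF-beta family receptor above, rose and Bambi fell, and neither passing probe was among the 34 counted. The Wnt median was 0.02 and that of the 16 hypoxia-inducible genes 0.23 without replicate 5. The 38 tested oxidative stress and glutathione genes, a list without the AhR targets, gave none in either fit. With the pituitary arrays fitted alone, 1 gene of that list passed. On that list Sod3, extracellular superoxide dismutase, was at 10.70, 10.93 and 10.95 in TCDD pituitaries, against 9.78, 9.91 and 9.75 in control pituitaries (log2 fold 1.05, adjusted p = 0.125). Nfe2l2, the factor NRF2, was at 10.58, 10.26 and 10.38 in TCDD pituitaries, against 9.66, 9.72 and 9.85 in control pituitaries (log2 fold 0.67, adjusted p = 0.126). The groups were separate for both genes, and neither passed with all arrays or without replicate 5. Ldha, lactate dehydrogenase A, had the smallest p of the glycolysis genes (0.39, adjusted p = 0.145), Nr4a3 that of the immediate early genes (-0.46, adjusted p = 0.142), and Acot2 that of the fatty acid genes (0.60, adjusted p = 0.0956).

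In the hypothalamus of the same design none of the 12023 tested probes passed by limma. There 1281 had an unadjusted p below 0.05, against 1494 in the pituitary. These probes were chosen by detection in pituitary, so probes detected only in hypothalamus were not tested. Over the 92 pituitary probes the hypothalamic log2 fold ran from -0.49 to 2.04, and the highest belonged to Cyp1b1 (2.04, adjusted p = 0.314) and Acvrl1 (0.70, adjusted p = 0.314). The difference between the tissues passed for 25 probes (0.208%), 24 of which were among the 92, and for 14 without control replicate 2. Aldh1a1, Alox15, Myh7, Or5m8, Bloc1s1, Fetub, Hrk, Kcnh6 and Kcnc2 were more positive in the pituitary, and Tpsab1, Dapl1, Mcpt10, Ces1c, Rbp7, Mlc1, Sdf2l1 and Tnnt3 more negative. For the other 68 of the 92 the difference did not pass, which does not show that the tissues responded alike.

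**Figure D5:**
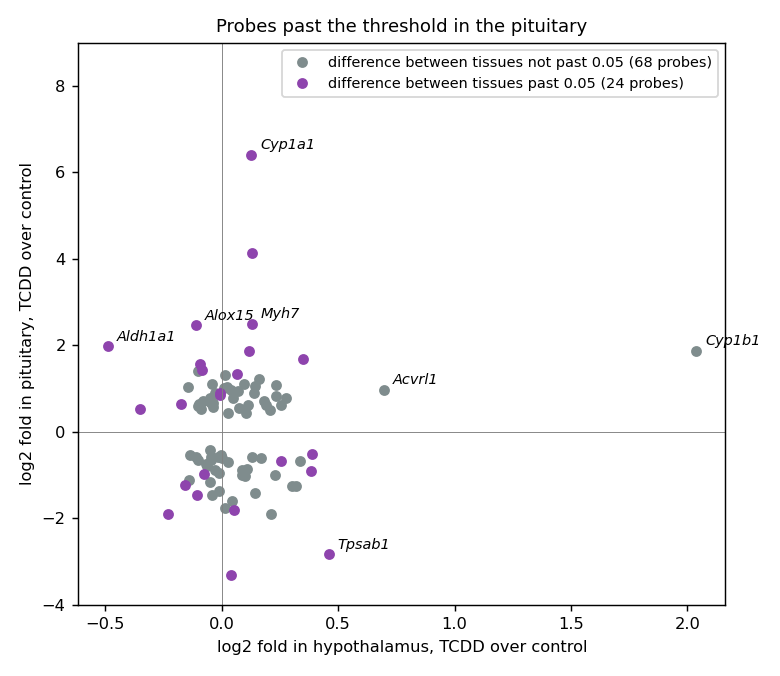
Log2 fold of TCDD over control in pituitary (vertical axis) against that in hypothalamus (horizontal axis) for the 92 probes past the threshold in the pituitary; purple marks the 24 whose difference between tissues passed 0.05. Apart from Cyp1b1 and Acvrl1, hypothalamic folds lie between -0.49 and 0.46.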

How the data were processed

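Total RNA (250 ng per sample) was read on a 1-colour RatRef-12 BeadChip. Per the file headers, the authors deposited 1 summarised raw intensity per probe and array with a detection p-value. They also deposited a processed table on a scale close to log2, whose exact transform is unknown and which served as an alternative. Intensities of all 12 arrays were normalized together with neqc (limma 3.58.1, R 4.3.3): background from the detection p-values, an offset of 16, quantile normalization and log2. The offset pulls folds of dim probes towards 0. One model of 4 group means was fitted with limma (8 residual and 4.10 prior degrees of freedom), with two-sided moderated tests and Benjamini-Hochberg adjustment over the 12023 tested probes. 10500 probes were left out as dim. Without TCDD replicate 5, the other 11 arrays were normalized and fitted anew. The fit was tested on simulated data.

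The platform annotation named 1 symbol for 8748 tested probes (8595 genes), and other probes stay unnamed. A listed gene with several probes took the brightest. Of 1427 genes on 50 lists 922 were tested. The members, lists and tests were chosen with earlier results of these data known. Named genes were the 20 largest rises and falls past the threshold, the other passing genes, up to 4 passing members of a list or else the 2 of smallest p, and, for replicate 5, the 15 largest and 10 lowest differences; others named beside a list, such as abundant or defining members, were chosen after their values were seen. Where no array of a group detected a probe, the fold is a bound against the lowest detected signal. Replicate numbers 1 and 2 occur in both groups, and the correlation of same-numbered deviations was 0.037 and 0.020 over 12023 probes, so they were not treated as pairs. Alternatives covered background, scaling, the deposited values, filters, the spread model, a replicate block and left-out arrays.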

Additional observations from a re-analysis of the deposited data

Results flagged for a closer look

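The log2 fold of TCDD over control differed between pituitary and hypothalamus, by the test of that difference in limma, for 25 probes, and these are given as the pituitary fold minus the hypothalamus fold. It was positive for Cyp1a1, 6.28 (adjusted p = 9.53e-10), Ahrr, 4.02 (adjusted p = 1.63e-09), Alox15, 2.58 (adjusted p = 0.0126), Aldh1a1, 2.47 (adjusted p = 0.0179), Myh7, 2.38 (adjusted p = 2.57e-05). The smaller positive differences were those of Or5m8, 1.75 (adjusted p = 0.00165), Ugt1a6, 1.66 (adjusted p = 0.00464), Bloc1s1, 1.51 (adjusted p = 0.00243), Nqo1, 1.34 (adjusted p = 0.00346), Fetub, 1.26 (adjusted p = 0.0191). They were followed by Slc40a1, 1.05 (adjusted p = 0.0244), Hrk, 0.89 (adjusted p = 0.033), Kcnc2, 0.87 (adjusted p = 0.0256), Cyp1a2, 0.86 (adjusted p = 0.00706), Kcnh6, 0.82 (adjusted p = 0.033). It was negative for Fshb, -3.36 (adjusted p = 0.0125), Tpsab1, -3.28 (adjusted p = 0.0224), Lhb, -1.86 (adjusted p = 0.0256), Dapl1, -1.66 (adjusted p = 0.0224), Mcpt10, -1.36 (adjusted p = 0.00497). The smaller negative differences were those of Mlc1, -1.29 (adjusted p = 0.0256), Ces1c, -1.06 (adjusted p = 0.033), Sdf2l1, -0.93 (adjusted p = 0.0256), Tnnt3, -0.91 (adjusted p = 0.0256), Rbp7, -0.90 (adjusted p = 0.0331). For Cyp1a1, Ahrr, Ugt1a6 and Cyp1a2 no control pituitary array, and for Mcpt10, Mlc1, Ces1c and Rbp7 no TCDD pituitary array, was above background, so the size printed for these 8 rests on background values and is no measured difference, and they were tested only through the group that detected them. Slc40a1, the iron exporter ferroportin, was the 1 gene of these that passed in neither tissue, with a log2 fold of 0.40 in pituitary and -0.65 in hypothalamus (adjusted p 0.174 and 0.314).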

How the results depend on the processing

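The 92 probes past the threshold became 213 (93 higher, 120 lower) with the authors' processed values, 232 with array weights, 26 (19 higher, 7 lower) with the pituitary arrays fitted alone and 40 with a replicate block; the numbers pair no samples, so the block is a check only. The shares that were higher were 43.7%, 50.4%, 73.1% and 60%, against 54.3% as reported. Leaving out 1 pituitary array gave 46 to 97. Without TCDD replicate 5, the 97 became 193 with the authors' values, 32 with the pituitary arrays alone, 56 with the block and 42 to 85 with a further array left out, an alternative chosen after seeing the data. The 25 differences between tissues became 40 with the authors' values and 14 to 31 with 1 array left out. Counts under the other background, scaling, filter and trend settings were within 1.5 times (67 to 112 of the main comparison). No call changed sign under any setting run; of the 92, 82 were kept with median scaling, which moved the split to 60 higher and 38 lower, 82 with the authors' values, 25 with the pituitary arrays alone and 38 with the block. The causes were not tested. A block for slides was not run, since the file headers name none. Dim probes near background, such as Ces1c and Rbp7, are limited by signal over background.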

Other observations

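Washc3, a subunit of an endosomal actin-regulating complex, belonged to no list and did not pass, and its values split the TCDD group. Its levels were 10.44, 9.49 and 5.57 in TCDD pituitaries, against 5.41, 5.25 and 5.21 in control pituitaries, so TCDD replicates 1 and 2 lay far above and replicate 5 beside the controls. No control pituitary array detected it, and the mean TCDD level was at least 7.98-fold higher (adjusted p = 0.382 with all arrays and 0.158 without replicate 5). In hypothalamus it varied widely in both groups, with a mean of 8.01 (SD 2.50) with TCDD and 8.14 (SD 2.28) in controls. In pituitary the SD was 2.58 with TCDD and 0.11 in controls, and the source of the spread was not tested. The probe entered the test only because the TCDD pituitary arrays detected it. Mmp9, a matrix metalloprotease of osteoclasts and neutrophils, was at 5.82, 5.61 and 5.83 in TCDD pituitaries, against 7.40, 8.01 and 6.0 in control pituitaries, with control replicate 3 next to the TCDD arrays. Its adjusted p was 0.125 with all arrays and 0.000146 without control replicate 3. Krt19, a keratin of simple epithelia, was at 11.90, 11.97 and 11.60 in TCDD pituitaries, against 11.13, 10.81 and 11.19 in control pituitaries and did not pass (log2 fold 0.78, adjusted p = 0.119), although the groups did not overlap.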
